A study of Mus musculus with 2 samples.

Results

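The immediate-early AP-1 and EGR genes are described here by 10 genes, taken by symbol from the 14678 genes of the deposited table: Fos, Fosb and Fosl2 of the Fos family, Jun, Junb and Jund of the Jun family, Egr1, Atf3, Ier2 and Ier3. All 10 were found in the table. Tags, short stretches of sequence that each stand for a transcript, were counted per gene by digital gene expression (DGE) profiling of uteri at gestation day 2.5, before implantation, in 1 Dox+ library and 1 Dox− library. All mice carried both transgenes (VEGFtetO/tetO/beta-AKtg/wt), with 4 copies of the tet operator in the promoter region of VEGF and a tetR-Krab repressor driven by the β-actin promoter in all tissues. Dox+ mice (VEGF-normal) ate chow with 200 mg/kg doxycycline, which releases the repressor. In Dox− mice (VEGF-repression) doxycycline was removed at 3 to 4 weeks of age, and the uteri of littermates were taken after 6 weeks, at 9 to 10 weeks. The RNA of 3 uteri was pooled per library, so the animals are not separate measurements, and no test between the conditions was possible. The comparison asks which of these genes differ in the pre-implantation uterus between the Dox− and the Dox+ library. The conditions differ in doxycycline as well as in VEGF, and effects of the drug and of VEGF repression cannot be told apart.

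Immediate-early genes are transcribed within minutes of a growth factor, hormone or stress signal, without new protein synthesis, and most of their transcripts decay quickly. Fos proteins do not pair with each other but pair with Jun proteins to form AP-1, which binds DNA, while Jun proteins also pair among themselves. Egr1 is a zinc finger transcription factor induced through the serum response factor SRF and its ternary complex partners. In the rodent uterus, Fos, Jun and Egr1 are classical early targets of estrogen.

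Fos differed most between the libraries among the 10 genes, with 4.75 times more tags per clean tag in Dox− than in Dox+, followed by Ier3 with 2.61 times and Junb with 1.90 times. Ier2 was lower in Dox−, by 1.40 times. Jun, Fosl2 and Egr1, which are among the 4 most tagged members in both libraries, differed by less than counting error, and Jund was 1.23 times higher in Dox−. Every ratio is the gene's tags per clean tag in Dox− divided by that in Dox+, with an exact Clopper-Pearson 95% interval that covers counting error and no difference between animals or libraries. In bulk tissue, fewer cells of a type and less RNA per cell cannot be told apart.

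A gene was compared where it had at least 200 tags in the libraries together, the study's filter, and was called where the ratio reached 1.5 in either direction. By this rule 6 of the 10 members were compared, and 1 of them, Junb, was called higher in Dox− and 0 lower. Over all 6547 genes compared in the same way, 15.2% were called higher and 14.7% lower, so the members' count stands near the background. The median log2 ratio was 0.08 over the 6 members and 0.04 over all genes compared. Fos, Ier3, Fosb and Atf3 had too few tags for the filter. A further rule, chosen after seeing the data, took at least 20 tags in the libraries together and an interval that leaves out 1. By it 9 members were compared, and Fos, Ier3 and Junb were called higher and 0 lower. The same rule called 17.3% of 12079 genes higher and 16.4% lower. Without the interval, Fosb was also called lower.

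**Figure D1:**
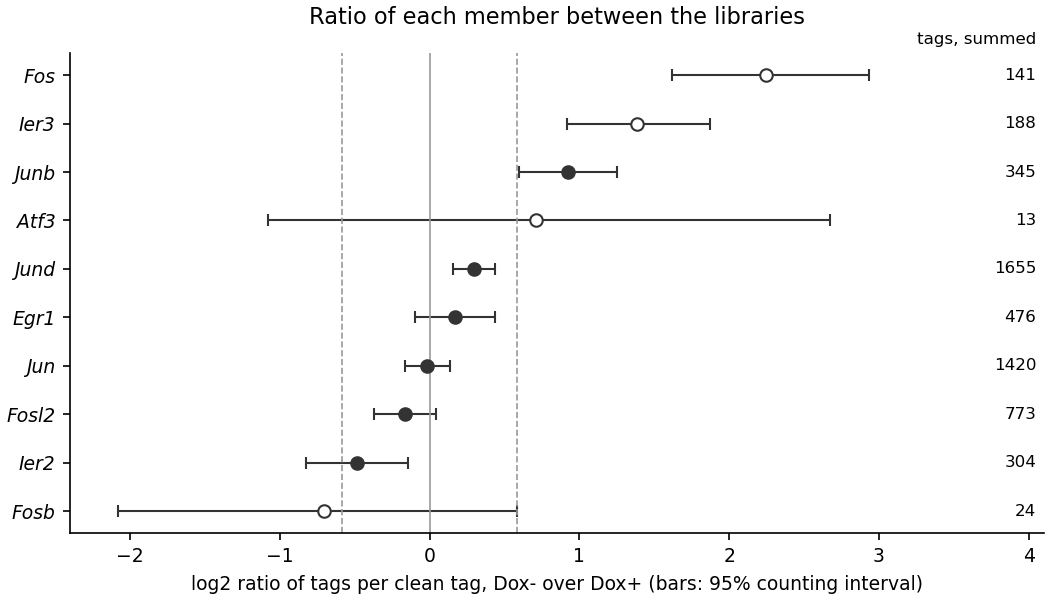
The log2 ratio of each member, Dox− over Dox+, is plotted on the x axis with its 95% counting interval, and the number at the right gives its tags in the libraries summed. Filled points have at least 200 tags, open points fewer, and dashed lines mark a ratio of 1.5. The intervals of Fos, Ier3 and Junb lie to the right of the dashed line at 1.5, and those of Fosb and Atf3 span 0.

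The sequences just before the RefSeq start sites of Fos, Junb and Ier3 are shown because these are the 3 genes called higher by the lower filter. RefSeq promoters of build GRCm38.p6, a later build than that of the study, matched 8 of the 10 members, and Egr1 and Ier2 had no entry. In the 250 bases before each start, 6 motifs were searched on both strands: the AP-1 site TGANTCA, the cyclic AMP response element core TGACG and its full form TGACGTCA, which contains the core, the EGR site GCGNGGGCG, the SRF-binding CArG box, and TATAA. Capitals mark TGACG in the last 150 bases before the start, written 5′ to 3′.
Fos, chr12:85473740-85473889, plus strand: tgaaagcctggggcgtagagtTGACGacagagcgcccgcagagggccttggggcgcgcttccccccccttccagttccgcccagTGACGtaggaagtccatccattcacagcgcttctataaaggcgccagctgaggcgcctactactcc
Junb, chr8:84978749-84978898, minus strand: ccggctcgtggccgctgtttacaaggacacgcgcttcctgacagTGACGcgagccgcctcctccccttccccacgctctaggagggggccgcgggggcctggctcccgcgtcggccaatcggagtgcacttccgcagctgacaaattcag
Ier3, chr17:35821563-35821712, plus strand: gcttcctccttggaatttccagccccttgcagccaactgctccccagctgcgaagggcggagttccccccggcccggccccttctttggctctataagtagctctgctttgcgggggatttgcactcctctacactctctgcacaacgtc

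The Fos sequence held TGACG at 129 to 125 and at 66 to 62 bases before the start, and TATAA at 33 to 29 bases. The Junb sequence held TGACG at 106 to 102 bases, and the Ier3 sequence held TATAA at 58 to 54 bases and none of the other letters. Among the members that were not called, Fosb held TGACG at 60 to 56 bases and an EGR site at 50 to 42 bases, Fosl2 held an EGR site at 79 to 71 bases, Atf3 held the core on the other strand at 7 to 3 bases, and Jun and Jund held none of the 6 motifs. Of all 32851 promoters in the table, 17.8% held TGACG, 1.55% its full form, 6.75% TGANTCA, 4.70% the EGR site, 1.47% a CArG box and 22.8% TATAA. These are exact matches of letters in a short window, with no measurement of binding, and elements further upstream were not searched. Variant sites were not counted. The Jun sequence holds TGACATCA, which differs from the full form TGACGTCA by a letter and matches none of the patterns searched.

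Fos, the founding member of its family and a short-lived partner of Jun (chromosome 12, 86814840 to 86818223 on NCBIM37, the assembly also called mm9), had 25 tags in Dox+ (4.18 TPM, tags per 1000000 clean tags) and 116 tags in Dox− (19.9 TPM). The Dox− library was the higher, and the counting intervals of the levels, 2.70 to 6.17 TPM and 16.4 to 23.8 TPM, did not overlap. The interval of the ratio was 3.06 to 7.64. Among the 2309 genes with 100 to 199 tags in the libraries together, Fos had the 32nd highest ratio, and 20.7% of these genes were at least 1.5 times higher in Dox−.

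Fosl2, which encodes the Fos-related protein Fra-2 (chromosome 5, 32438845 to 32460204), had 413 tags in Dox+ and 360 in Dox−. Its level was slightly lower in Dox−, and the interval of the ratio, 0.773 to 1.03, held 1. Fosb, a further Fos protein (chromosome 7, 19888070 to 19895394), had 15 and 9 tags, and its interval of 0.237 to 1.5 spans both directions. A difference in Fosb was not detectable at this depth. Fosl1, the remaining Fos family gene, was not listed in the table under this symbol.

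The Fos family as a whole had 453 tags in Dox+ and 485 in Dox−, a ratio of 1.10 (0.963 to 1.25). Within it the shares differed. Fosl2 held 91.2% of the family's tags in Dox+ (exact interval 88.2 to 93.6%) and 74.2% in Dox− (70.1 to 78.1%). Fos held 5.52% (3.60 to 8.04%) in Dox+ and 23.9% (20.2 to 28.0%) in Dox−. Fosb held 3.31% and 1.86%, with overlapping intervals. The labels describe fragmented mRNA, which would make tags rise with transcript length. The paper describes tag profiling, in which a transcript gives a tag whatever its length, and the counts were read in that way. Values per length would hold under fragmentation alone and do not apply to tag profiling. When tags were divided by the length of the longest annotated transcript, Fos made up 13.8% of the family in Dox+ and 46.3% in Dox−, against 81.6% and 51.7% for Fosl2, whose transcript is longer.

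**Figure D2:**
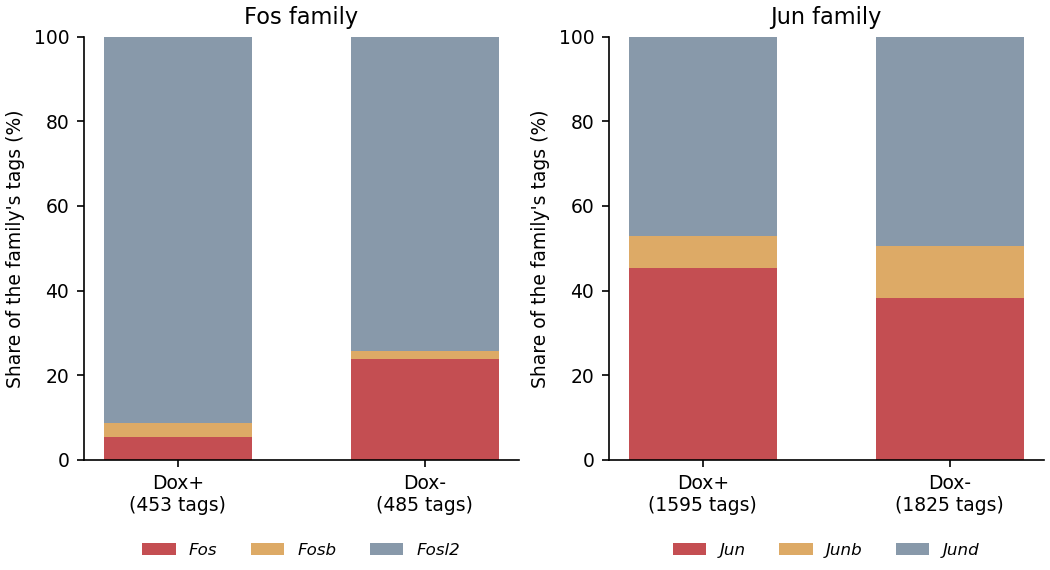
Stacked bars show the share of each gene in the tags of the Fos family (left) and the Jun family (right), in percent, in the Dox+ and the Dox− library, with the tags of the family under each bar. The share of Fos is 5.52% in Dox+ and 23.9% in Dox−, and that of Junb is 7.59% and 12.3%.

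Junb, a Jun protein that is often induced together with Fos (chromosome 8, 87500811 to 87502617), had 121 tags in Dox+ (20.2 TPM) and 224 in Dox− (38.3 TPM). The Dox− library was the higher, without overlap of the counting intervals of the levels. The ratio was 1.90 (1.51 to 2.39).

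Jun, the founding Jun protein (chromosome 4, 94715725 to 94718913), had 722 tags in Dox+ and 698 in Dox−, or 121 and 119 TPM. These levels were the closest of any member, with a ratio of 0.990 (0.891 to 1.10). Jund, the Jun protein usually described as present without stimulation (chromosome 8, 73221638 to 73224515), had 752 tags in Dox+ and 903 in Dox−. Its ratio of 1.23 (1.12 to 1.36) was above 1 beyond counting error but below the 1.5 needed for a call. In the annotation, Jun overlaps BC042782, and Jund overlaps Gm11175, each on the opposite strand, and whether the deposited tags were restricted to the sense strand is not given in the sources used here.

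The Jun family had 1595 tags in Dox+ and 1825 in Dox−, 1.17 times more (1.10 to 1.25), so that there were 3.52 Jun family tags per Fos family tag in Dox+ and 3.76 in Dox−. Junb held 7.59% of the family's tags in Dox+ (6.33 to 9.0%) and 12.3% in Dox− (10.8 to 13.9%). Jun held 45.3% (42.8 to 47.7%) and 38.2% (36.0 to 40.5%), and Jund 47.1% and 49.5%, with overlapping intervals. Per length, under fragmentation, the shares of Junb were 12.1% and 18.9%.

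Egr1, the EGR factor of the group (chromosome 18, 35020861 to 35024638), had 227 tags in Dox+ (37.9 TPM) and 249 in Dox− (42.6 TPM). The ratio of 1.12 (0.935 to 1.35) differed from 1 by less than counting error. It overlaps Gm17507 on the opposite strand. Atf3, a stress-induced factor that also pairs with Jun proteins (chromosome 1, 192994175 to 193007219), had 5 tags in Dox+ and 8 in Dox−, and its interval of 0.473 to 6.37 tells nothing of a direction.

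Ier3, a small protein linked to cell survival and MAP kinase signaling (chromosome 17, 35958629 to 35959868), had 53 tags in Dox+ (8.85 TPM) and 135 in Dox− (23.1 TPM). The Dox− level was the higher, and the intervals of the levels, 6.63 to 11.6 TPM and 19.4 to 27.3 TPM, did not overlap. The ratio was 2.61 (1.89 to 3.66), the 96th highest among the 2309 genes with 100 to 199 tags. Ier2, an immediate-early nuclear protein (chromosome 8, 87185230 to 87186751), went the other way, with 179 tags in Dox+ (29.9 TPM) and 125 in Dox− (21.4 TPM). It was 1.40 times lower in Dox− (1.11 to 1.77), above counting error and short of a call. The Ier genes thus differed in opposite directions, as the intervals of Ier3 and Ier2 lie on either side of 1.

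**Figure D3:**
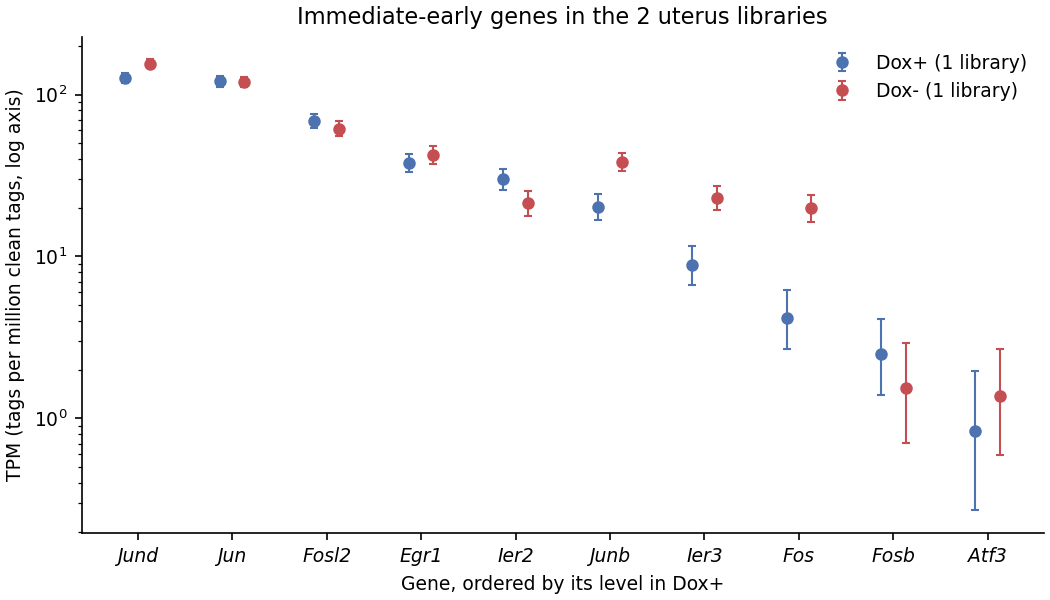
The level of each member is plotted in TPM (tags per 1000000 clean tags) on a log axis, with exact Poisson 95% intervals, for the Dox+ library (blue) and the Dox− library (red). Jund and Jun lie above 100 TPM in both libraries, and Fos, Ier3 and Junb have Dox− points above their Dox+ points without overlap of the intervals.

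By tags, the order in Dox+ was Jund, Jun, Fosl2, Egr1, Ier2, Junb, Ier3, Fos, Fosb and Atf3. Here Jund and Jun, Egr1 and Ier2, Fos and Fosb, and Fosb and Atf3 were neighbours whose Poisson intervals overlapped. In Dox− the order was Jund, Jun, Fosl2, Egr1, Junb, Ier3, Ier2, Fos, Fosb and Atf3, and Egr1 and Junb, Ier3 and Ier2, Ier2 and Fos, and Fosb and Atf3 overlapped. Among all genes of the table, Jund had the 989th most tags in Dox+ and the 780th in Dox−, while Fos moved from place 10383 to place 5891. If tags did scale with length, the order would differ from that by tags. Per kilobase of transcript, Jund had 261 tags and Jun 226 in Dox+, followed by Ier2 with 118, Egr1 with 73.2, Fosl2 with 70.5, Junb with 67.0, Ier3 with 46.9 and Fos with 11.9. In Dox−, Junb with 124 tags per kilobase and Ier3 with 119 followed Jund with 314 and Jun with 219, and Fos had 55.0.

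**Figure D4:**
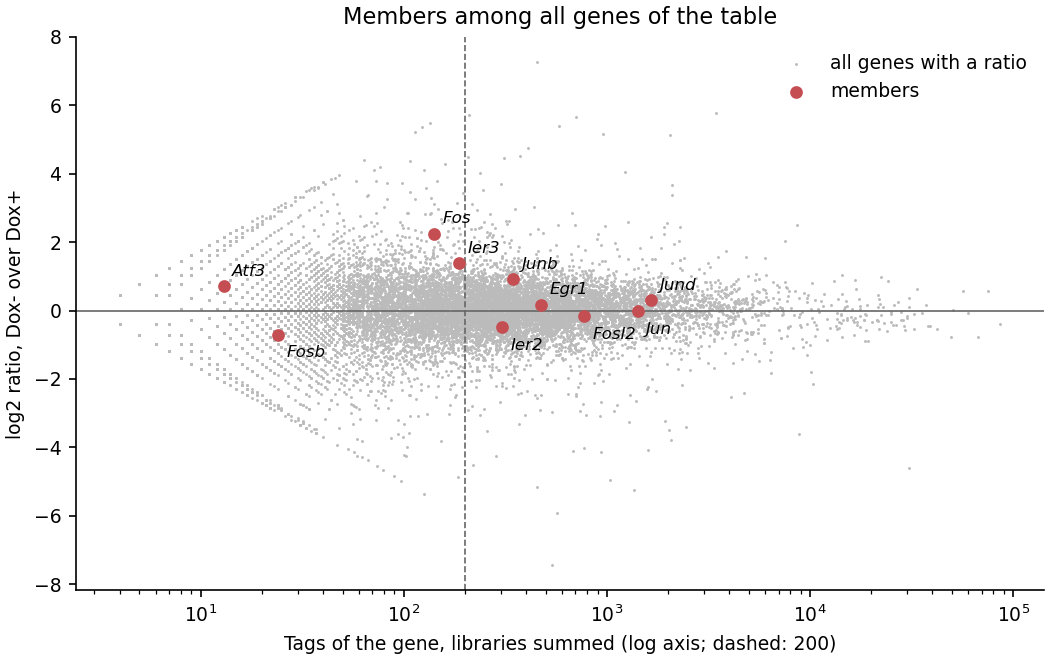
Each grey point is a gene with a ratio, plotted by its tags in the libraries summed (log axis) and its log2 ratio, Dox− over Dox+, where 3 or fewer tags in a library were set to 3. Members are red, and the dashed line marks 200 tags. Fos and Ier3 lie at 141 and 188 tags, left of the line, where ratios of other genes spread widely, and Jun and Jund lie near 0 at 1420 and 1655 tags.

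Other genes of the same pathways were followed with lists, whose counts stand beside 15.2% of all genes compared that were called higher and 14.7% lower. Of 24 listed AP-1, ATF and MAF relatives, 21 were in the table, 10 had enough tags, 3 were called higher and 1 lower, with a median log2 ratio of 0.30. Atf5, a stress-related ATF factor, went from 596 to 1252 tags, 2.15 times higher in Dox− (1.95 to 2.38), and Maf from 433 to 769 tags, 1.82 times higher (1.61 to 2.05). Nfe2l1, with the most tags of the list, had 939 and 941. Of the EGR relatives and NAB genes, which encode corepressors of EGR proteins, 4 of 6 were in the table and 3 had enough tags, of which 0 were called higher and 1 lower. Nab2 went from 297 to 213 tags, a log2 ratio of -0.45, and Wt1, a zinc finger factor with a related DNA site, from 325 to 157, 2.02 times lower (1.67 to 2.46). Egr2 had 11 and 7 tags, and Egr3 and Egr4 were not listed in the table.

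Of 53 other immediate-early genes, 51 were in the table and 30 had enough tags, of which 9 (30.0%) were called higher and 10 (33.3%) lower, beside 15.2% and 14.7% of all genes. Their median log2 ratio was 0.04. The group thus held large differences both ways, in lists chosen with earlier results of these data known. Among its transcription factors, Ier5, a relative of Ier2, went from 382 to 123 tags, 3.03 times lower in Dox− (2.47 to 3.75), in the same direction as Ier2. Klf4, a zinc finger factor of epithelia, went from 86 to 279 tags, 3.32 times higher (2.60 to 4.28). Id2 and Id3, inhibitors of helix-loop-helix factors, had the most tags, with log2 ratios of -1.09 and -0.58. Among effectors, Gadd45g, a growth arrest gene, went from 45 to 272 tags, 6.19 times higher (4.50 to 8.69), and Sgk1, a kinase induced by serum and steroids, from 1198 to 187 tags, 6.25 times lower (5.36 to 7.34). Rhob, an early-induced small GTPase, had a log2 ratio of -1.11 and Zfp36l1, which promotes mRNA decay, of -0.58.

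The next counts also stand beside 15.2% of all genes compared that were called higher and 14.7% lower. Of 23 listed genes of SRF and MAP kinase input to Fos and Egr1, all were in the table and 16 had enough tags. Of these, 2 were called higher and 0 lower, with a median log2 ratio of 0.36. Map2k4, a kinase upstream of JNK, went from 196 to 384 tags, 2.01 times higher (1.69 to 2.40), and Rps6ka1 from 145 to 229, 1.62 times higher (1.31 to 2.01). Map2k2, with the most tags, had a log2 ratio of -0.42. Of 20 genes known as AP-1 or EGR1 targets in various cells, 5 had enough tags, 1 was called higher and 3 lower, with a median of -0.60. Mmp2 went from 3962 to 2006 tags, 1.93 times lower (1.83 to 2.04), Vim from 2612 to 1680 and Spp1 from 361 to 622. Heat shock genes, which tissue stress induces along with Fos, were 12 with enough tags, 1 called higher and 1 lower, with a median of 0.28. Hsph1 was 1.62 times higher (1.48 to 1.78), Hspb1 2.63 times lower (2.42 to 2.86), and Hsp90ab1 and Dnaja1 had log2 ratios of -0.21 and -0.41.

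**Figure D5:**
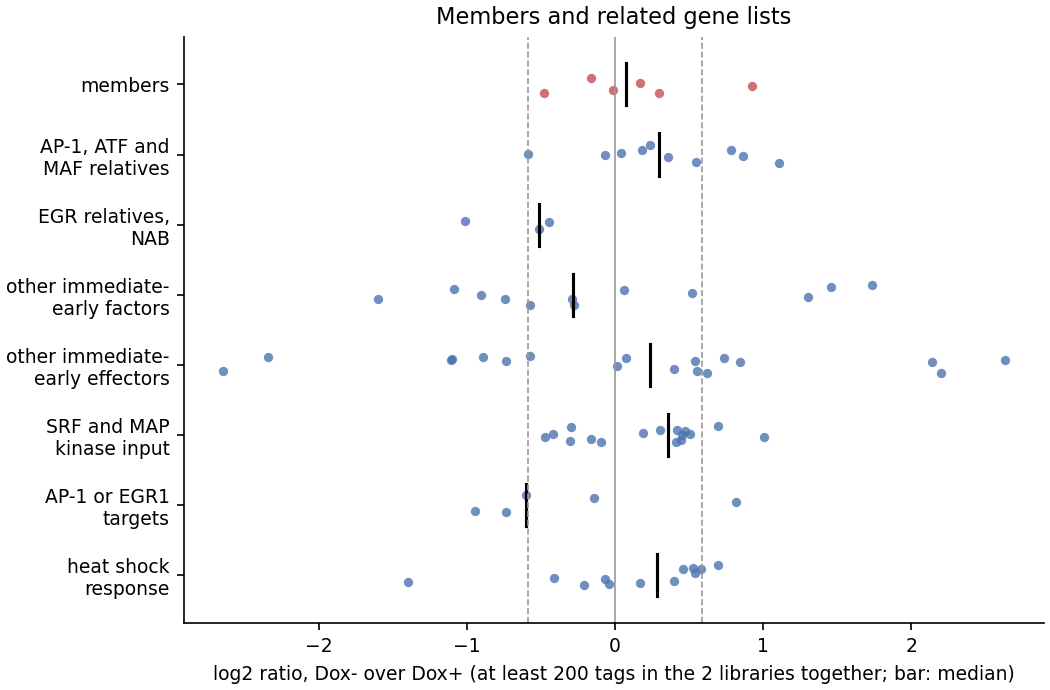
Each point is a gene with at least 200 tags in the libraries together, plotted by its log2 ratio, Dox− over Dox+, for the members (red) and 7 related lists (blue). Vertical bars are medians and dashed lines a ratio of 1.5. The other immediate-early effectors reach from -2.64 (Sgk1) to 2.63 (Gadd45g), while the 6 members with enough tags reach from -0.48 (Ier2) to 0.92 (Junb).

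The libraries held 5985925 and 5844314 clean tags, of which 74.1% and 72.2% were counted to genes. Vegfa, the repressed gene, had 41.3 TPM in Dox+ against 21.4 TPM in Dox−, 1.93 times lower (1.55 to 2.41). Markers of the uterus were present, with all 13 stroma, 14 epithelium and 10 smooth muscle markers listed at 1 tag or more in both libraries. Cell type markers also moved beside the members. All 10 smooth muscle markers were lower in Dox−, with a summed level of 9650 TPM in Dox+ against 6680 TPM in Dox−. Tagln had the most tags. Of the 14 epithelium markers 11 were higher and 3 lower, summed 1730 and 2390 TPM. Krt19, with the most tags, was 1.35 times higher, short of a call. Stroma markers summed to 10100 and 12000 TPM, with 5 higher, 8 lower and Col1a1 the most tagged, and the 11 endothelial markers in the table to 273 and 190 TPM, with 3 higher and 8 lower and Cdh5 the most tagged. Of 15 leukocyte markers 12 were higher by any amount and 2 lower, summed 105 and 174 TPM, but only 2 had at least 200 tags. Csf1r, with the most tags, had 186 and 181, a ratio of 0.997. The 4 erythroid markers in the table summed to 11.0 and 35.6 TPM, led by Hba-a1, with Hbb-b2 at 0 in Dox+. The part of these shifts in the ratios of Fos, Ier3 and Junb was not tested.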

How the data were processed

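Per the labels and the methods, the authors pooled total RNA of 3 uteri per condition and sequenced 1 tag library for each. They dropped tags that were adaptor-only, of low quality or seen once, and matched the rest to mouse reference transcripts (mm9). The deposited counts are the tags the authors assigned to each gene from those that matched unambiguously, and they hold 74.1% and 72.2% of the clean tags. They sum to fewer tags than the study's total of unambiguous tags, so they do not hold all of these. The deposited TPM is the count per 1000000 clean tags, not corrected for length. The labels name CASAVA and fragmented mRNA, and the paper tag profiling; the aligner and enzyme are not given in the sources used here. The table also holds the authors' ratios, P-values and FDR, which were not used.

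Clean tags per library were recovered from counts and TPM, with all TPM values of tagged genes matching. Ratios carry exact Clopper-Pearson intervals and levels exact Poisson intervals at 95%, which do not cover differences between animals. Counts below a floor of 3 were raised to 3, with no ratio where both libraries had 3 or fewer. Genes with at least 200 combined tags were compared, and a ratio of at least 1.5 was a call. Positions and transcript lengths are from the GENCODE annotation of NCBIM37. The code for ratios and calls was run on simulated counts that held counting error only. That run checks the code and tells nothing of differences between animals or libraries. Alternatives were other library sizes, TMM (edgeR 4.0.16, R 4.3.3) and median-ratio scaling, filters, thresholds and a pseudocount. Python 3.11.15, numpy 2.4.6, scipy 1.17.1 and pandas 2.3.3 were used. The members and lists were chosen with earlier results of these data known. Named are all members, the 2 most tagged and the 2 called genes of largest ratio in each list, the most tagged gene of each marker list and Vegfa. Egr2 was named after its values were seen, since its family is small. A further gene under this rule is not reported here.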

Additional observations from a re-analysis of the deposited data

How the results depend on the processing

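With library sizes from the gene tags, TMM, median-ratio scaling or a pseudocount of 1, all 40 values of single members stayed within their counting intervals. Under each, 1 member was called higher and 0 lower. Each change of library size or scaling moves all log2 ratios by the same small amount, so this outcome says little about how stable they are. The median of the members was between 0.04 and 0.12 under these settings and -0.01 without Jund, the member with the most tags. The filter decided the counts. With at least 20 combined tags, 3 of 9 members were called higher and 1 lower (Fosb), and 2385 and 2256 of 12079 genes. Adding an interval that leaves out 1, chosen after seeing the data, gave 3 and 0 members, and 2086 and 1981 genes (17.3% and 16.4%). Without a filter, 4 of the 10 members were higher and 1 lower, with a median of 0.23. So were 2869 and 2830 genes, among those of the 14678 that had a ratio. The number with a ratio is not given, so no share is set beside the members. At a ratio of at least 2, 0 of 6 members were called, and of 6547 genes 302 were higher and 368 lower. Variation between animals cannot be estimated from 1 library per condition, and depth limits Fosb and Atf3.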

Other observations

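Several listed genes with fewer than 200 combined tags showed large ratios, and they were picked after their values were seen. Mmp3, a matrix metalloproteinase with an AP-1 site in its promoter, had 98 tags in Dox+ and 5 in Dox−, 19.1 times lower (7.93 to 60.2). Areg, an EGF-family ligand, had 31 tags in Dox+ and 0 in Dox−, at least 7.73-fold lower by the counting interval and 10.1-fold lower against a floor of 3 tags in the Dox− library. Higher in Dox− were Nfkbiz, a nuclear regulator of NF-κB, with 14 and 82 tags (ratio 6.00, 3.38 to 11.5), Nfe2l2, the oxidative stress factor, with 32 and 119 tags (3.81, 2.56 to 5.82), and Batf, a relative of Fos that pairs with Jun proteins, with 36 and 99 tags (2.82, 1.91 to 4.25).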
